A study of Arabidopsis thaliana with 24 samples.

Results

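The genes described here are 10 Arabidopsis loci for the proteins and oil body coats that fill a seed: the cruciferins CRA1 (AT5G44120), CRU2 (AT1G03880) and CRU3 (AT4G28520), the albumins SESA1 to SESA5 (AT4G27140, AT4G27150, AT4G27160, AT4G27170 and AT5G54740), and the oleosins OLEO1 (AT4G25140) and OLEO2 (AT5G40420). They are 10 of the 32833 genes in the deposited table. They were taken by identifier and selected on their counts, since these seed genes were still counted in seedlings and were higher in some groups of the mutant. The genotype differences below are thus what the genes were chosen by, and they are given as a description with no test.

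Polysome-bound mRNA, the messages that sediment with ribosomes, was sequenced from whole Arabidopsis thaliana seedlings aged 9 days. The wild type (Col-0) was set against the exa1-1 mutant, whose lesion is in EXA1 (AT5G42950), a gene for a GYF-domain protein. Seedlings of both genotypes had been grown on MS medium with sucrose and were held for 60 min on MS medium, on medium with 200 mM NaCl, at 23 °C or at 39 °C. The 8 groups are wild type in MS, NaCl, 23 °C and 39 °C and exa1-1 in the same 4 conditions, with 3 replicates each that the study describes as independent. The study describes a single normal condition, MS medium at 23 °C, while the labels hold a set of controls for salt and another for heat, which are kept apart here. In exa1-1 the libraries carried EXA1 at 5.53 to 8.22 CPM (counts scaled to library size, group means), against 52.5 to 102.5 CPM in the wild type.

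Cruciferins are legumin-type globulins and the SESA proteins are small sulfur-rich albumins. Both are made in the embryo during maturation, packed into vacuoles, and broken down after germination as a source of amino acids. Oleosins coat the oil bodies and keep them from fusing until the oil is used. In the embryo these genes are switched on by B3 factors such as ABI3, FUS3 and LEC2, which bind the RY element, together with bZIP factors that bind elements with an ACGT core. After germination they are silenced through VAL proteins and Polycomb complexes.

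The promoters are shown because the genes that carried the counts moved together between groups, which the choice of genes favours, and because these elements differ among them. Each line gives the 250 bases before the annotated gene start, 5′ to 3′ on the strand of the gene, from RefSeq assembly TAIR10.1. Capitals mark the RY core (CATGCA, or TGCATG on the other strand) and the ACGT core (ACGTG, or CACGT on the other strand). Both cores were searched on both strands, and the G-box CACGTG is a special case of the ACGT core, counted as a match on each strand.

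CRA1 promoter, chr5:17758337-17758586, minus strand: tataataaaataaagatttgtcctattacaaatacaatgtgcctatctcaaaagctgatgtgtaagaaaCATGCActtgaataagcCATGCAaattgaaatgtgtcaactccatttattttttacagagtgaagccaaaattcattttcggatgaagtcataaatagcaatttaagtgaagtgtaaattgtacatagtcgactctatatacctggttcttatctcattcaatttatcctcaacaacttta

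CRU3 promoter, chr4:14087306-14087555, plus strand: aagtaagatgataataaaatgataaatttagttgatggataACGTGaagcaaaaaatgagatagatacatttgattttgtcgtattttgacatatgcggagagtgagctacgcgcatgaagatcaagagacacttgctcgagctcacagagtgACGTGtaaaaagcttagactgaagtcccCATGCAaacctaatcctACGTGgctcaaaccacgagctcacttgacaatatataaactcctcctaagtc

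OLEO1 promoter, chr4:12900180-12900429, plus strand: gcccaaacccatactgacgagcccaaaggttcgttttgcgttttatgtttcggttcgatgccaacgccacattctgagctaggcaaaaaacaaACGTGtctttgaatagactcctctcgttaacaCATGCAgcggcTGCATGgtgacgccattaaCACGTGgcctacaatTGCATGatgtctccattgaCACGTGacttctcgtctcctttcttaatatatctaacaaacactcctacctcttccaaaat

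SESA3 promoter, chr4:13611546-13611795, plus strand: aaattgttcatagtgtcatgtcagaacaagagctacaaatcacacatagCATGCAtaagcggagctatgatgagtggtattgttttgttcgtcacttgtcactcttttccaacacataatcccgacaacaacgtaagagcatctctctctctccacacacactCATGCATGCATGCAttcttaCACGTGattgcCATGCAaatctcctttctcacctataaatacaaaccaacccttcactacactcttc

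The RY core was found in 8 of the 9 promoters searched, against 8.43% of the 27443 promoters of protein-coding genes cut to the same length. An ACGT core was found in 7 of the 9 promoters, against 22.9% of all, and a G-box in 6, against 6.49%. SESA1 to SESA4 are similar neighbouring genes, with the last RY core starting at -54 or -56 and the G-box at -65 or -67. Their promoters are thus not independent of each other in these counts. The CRA1 promoter held 2 RY cores and no ACGT core. CRU3 held 1 RY core and 3 ACGT cores, and OLEO1 held 3 RY cores and 5 ACGT cores. SESA3 held 7 RY cores, some of them overlapping in a run, although its transcript was nearly uncounted in seedlings. The CRU2 promoter held neither core. A match is a description of letters, not a site of binding.

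**Figure D1:**
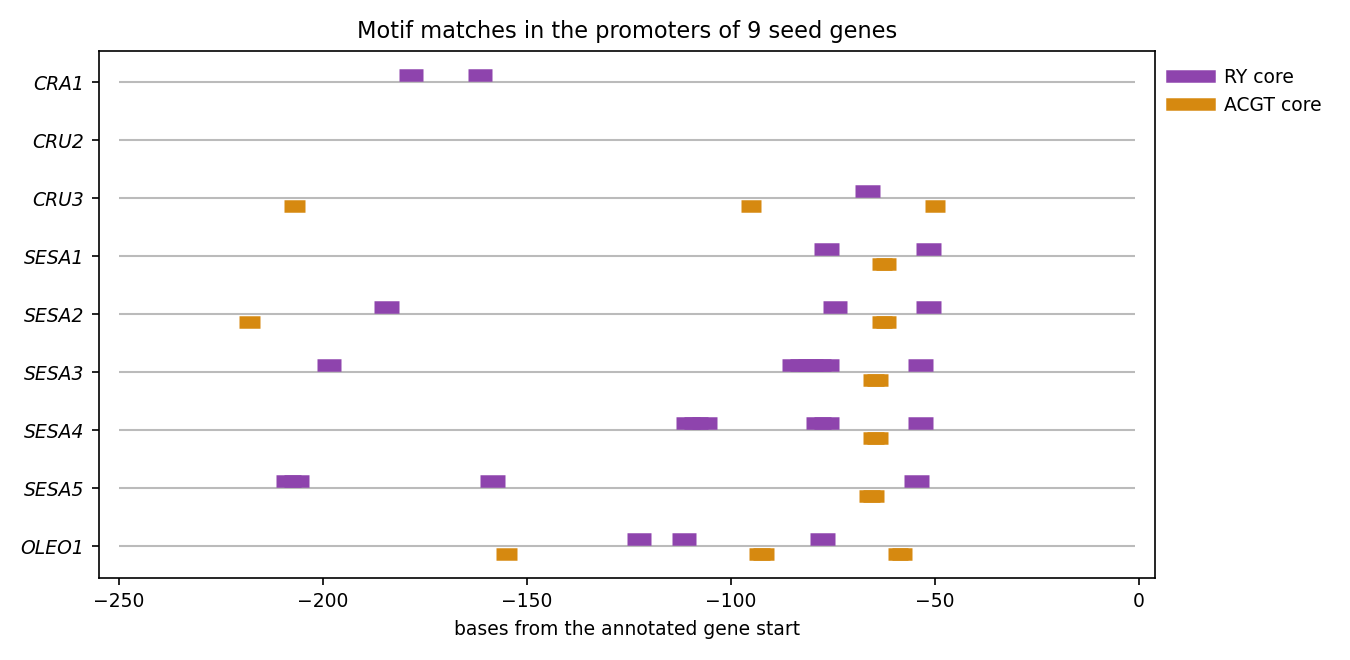
Matches to the RY core (purple) and the ACGT core (orange) in the promoters of 9 of the 10 seed genes, plotted by distance in bases from the annotated gene start. Of the 9 promoters 8 hold an RY core, 7 hold an ACGT core, and CRU2 holds neither.

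Library totals ran from 17861136 to 20629439 gene counts, and 5150 genes had no count in any library. CPM were scaled by TMM, and the TMM factors were 0.566 to 0.591 in the 6 libraries at 39 °C against 1.09 to 1.40 in the others. With library totals alone as the scale, the median log2 change of all genes moved to -1.0 in the wild type and -1.05 in exa1-1 in heat, -0.15 and -0.20 in salt, and -0.23 and -0.33 between the controls. The calls higher and lower then went from 7823 and 7584 to 6174 and 9518 for salt in the wild type, and from 7701 and 7971 to 5850 and 10357 for salt in exa1-1. For heat they went from 7999 and 8840 to 3011 and 15473 in the wild type, and from 7961 and 8661 to 2889 and 15677 in exa1-1. Between the controls they went from 7289 and 7199 to 5213 and 10013 in the wild type, and from 7256 and 7356 to 4451 and 11362 in exa1-1.

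The seed genes were rare in the seedling polysomes, and CRA1 and CRU3 held most of what was counted. Over the 24 libraries CRA1 had 1694 counts and CRU3 had 1098, which together is 85.6% of the 3262 counts of the 10 genes. OLEO2 had 183 counts, OLEO1 131, SESA1 80 and SESA2 43. SESA4, SESA5, SESA3 and CRU2 had 15, 8, 6 and 4 counts. Of the 240 values, 99 were 0, and at this depth differences among the 4 lowest genes were not detectable. Per length, in FPKM, the order in exa1-1 at 23 °C was CRA1 at 6.66, CRU3 at 5.35, OLEO2 at 1.17, OLEO1 at 1.16 and SESA1 at 0.772, with the other 5 genes under 0.24.

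CRA1, the most counted cruciferin, lies on chromosome 5 (17756238 to 17758336, minus strand, 3 exons), 525 kb from EXA1. In MS it had 30, 48 and 38 counts in the wild type and 21, 25 and 21 in exa1-1. In NaCl it had 11, 24 and 18 counts in the wild type and 17, 19 and 9 in exa1-1. These 12 libraries all stayed under 50 counts, and the genotypes parted only in MS, where the mutant was lower. At 23 °C the counts were 60, 77 and 72 in the wild type and 240, 235 and 235 in exa1-1. At 39 °C they were 21, 20 and 22 in the wild type and 147, 143 and 141 in exa1-1. In the heat experiment every exa1-1 library lay far above every wild-type library.

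Ordered by mean level, CRA1 stood at 0.688 CPM ± 0.252 (SD, n = 3 here and below) in exa1-1 with NaCl, 0.828 ± 0.284 in wild type with NaCl and 0.895 ± 0.126 in exa1-1 in MS. It then stood at 1.62 CPM ± 0.480 in wild type in MS, 1.95 ± 0.113 in wild type at 39 °C and 3.48 ± 0.458 in wild type at 23 °C. The highest levels were 11.3 CPM ± 0.457 in exa1-1 at 23 °C and 13.9 ± 0.361 in exa1-1 at 39 °C. The lowest 3 groups were within their SDs of each other, and so were wild type in MS and at 39 °C. The other neighbours in this order lay further apart than their SDs. The place of the 39 °C groups depended on the scale: with library totals alone CRA1 stood at 7.95 CPM in exa1-1 at 39 °C against 12.4 at 23 °C, and at 1.15 in wild type at 39 °C against 2.08 in MS.

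CRU3, the second cruciferin by counts, lies on chromosome 4 (14087556 to 14089796, plus strand, 4 exons). In MS it had 17, 14 and 15 counts in the wild type and 11, 6 and 16 in exa1-1. In NaCl it fell to 7, 2 and 0 counts in the wild type, and exa1-1 had 5, 5 and 2. In MS the genotypes overlapped in counts, although in CPM on the TMM scale the 3 mutant libraries lay below (not with library totals alone), and in NaCl they overlapped in both. At 23 °C the wild type had 40, 57 and 58 counts and exa1-1 had 214, 168 and 170. At 39 °C the wild type had 9, 12 and 10 counts and exa1-1 had 97, 71 and 92. As with CRA1, the 2 mutant groups of the heat experiment stood above all others with no overlap.

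In CPM, CRU3 ran from 0.143 ± 0.175 in wild type and 0.184 ± 0.0823 in exa1-1 with NaCl to 0.434 ± 0.180 in exa1-1 and 0.631 ± 0.0185 in wild type in MS. It was 0.961 CPM ± 0.145 in wild type at 39 °C and 2.58 ± 0.510 in wild type at 23 °C. In exa1-1 it was 8.42 CPM ± 1.40 at 39 °C and 8.72 ± 0.742 at 23 °C. The 4 groups of the salt experiment each reached into the SD of the next one, and so did the 2 highest groups. With library totals alone CRU3 stood at 4.80 CPM in exa1-1 at 39 °C against 9.62 at 23 °C, and at 0.566 in wild type at 39 °C against 0.812 in MS. On the TMM scale the steps from wild type in MS to 39 °C, to 23 °C and to the mutant were larger than the SDs. The ratio of CRU3 to CRA1 counts was 0.170 to 0.492 in the salt experiment and 0.492 to 0.778 in the heat experiment, so the pair did not keep a fixed proportion.

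CRU2, the remaining cruciferin (chromosome 1, 985751 to 988146, plus strand, 4 exons), was counted in 2 of 24 libraries, with 2 reads in a library of exa1-1 in MS and 2 in a library of exa1-1 at 23 °C. The 3 cruciferin genes are 66.5% to 75.4% identical over their loci, and the longest run of bases that any pair shares is 26.

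**Figure D2:**
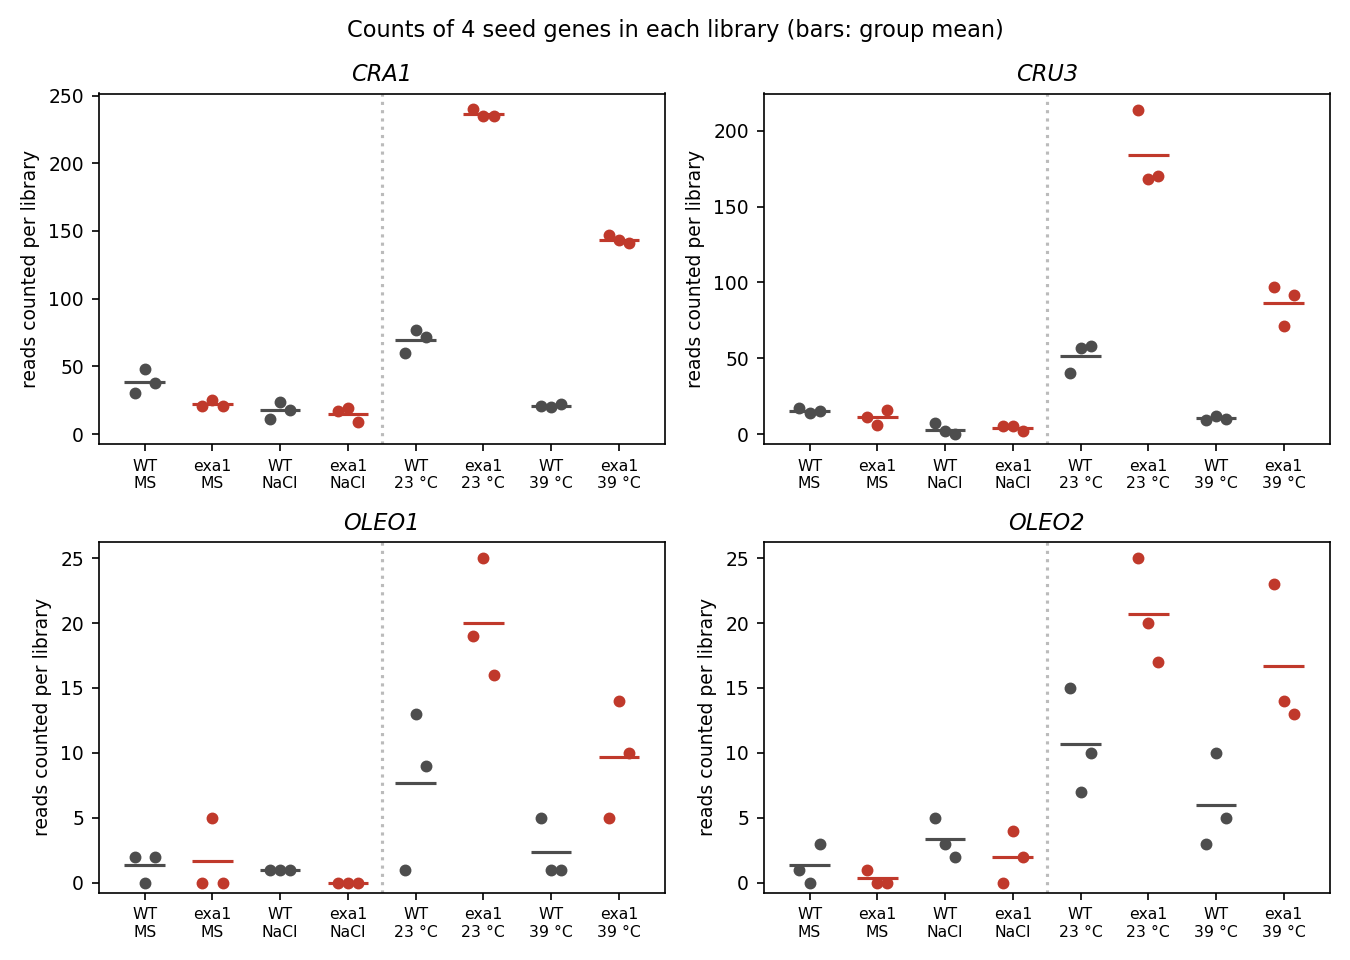
Reads counted per library for CRA1, CRU3, OLEO1 and OLEO2 in the 8 groups (points: libraries, 3 a group; bars: group means; dark: wild type; red: exa1-1), with a dotted line between the salt and the heat experiment and a different count axis for each gene. The exa1-1 libraries at 23 °C and 39 °C hold 141 to 240 CRA1 reads, and no other library holds more than 77.

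OLEO1, the main seed oleosin (chromosome 4, 12900430 to 12901577, plus strand, 2 exons), had 0 to 5 counts in each of the 12 libraries of the salt experiment. At 23 °C it had 1, 13 and 9 counts in the wild type and 19, 25 and 16 in exa1-1. At 39 °C it had 5, 1 and 1 counts in the wild type and 5, 14 and 10 in exa1-1. The genotypes did not overlap at 23 °C in counts. At 39 °C a library of each genotype had 5 counts, and the mutant libraries were all above in CPM.

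OLEO2 (chromosome 5, 16173340 to 16174783, minus strand, 2 exons, 1049 kb from EXA1) had 0 to 3 counts in MS and 0 to 5 in NaCl. At 23 °C it had 15, 7 and 10 counts in the wild type and 25, 20 and 17 in exa1-1. At 39 °C it had 3, 10 and 5 counts in the wild type and 23, 14 and 13 in exa1-1. For both oleosins the exa1-1 groups of the heat experiment held the most reads, as for the cruciferins, on far fewer counts. Their mean levels in exa1-1 at 23 °C were 0.954 CPM ± 0.240 for OLEO1 and 0.978 ± 0.143 for OLEO2.

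The albumins did not share this pattern as a class. Summed over SESA1 to SESA5, the groups held 21 counts in wild type and 17 in exa1-1 in MS, and 18 and 21 in NaCl. At 23 °C they held 16 counts in the wild type and 49 in exa1-1, and at 39 °C 6 and 4. Exa1-1 at 23 °C was the highest group, while at 39 °C, where the mutant kept high CRA1, both genotypes were at the lowest sums.

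SESA1 (chromosome 4, 13607329 to 13608031, plus strand) held most of the excess, with 10, 8 and 13 counts in exa1-1 at 23 °C against 1, 5 and 3 in the wild type. At 39 °C it had 2, 1 and 1 counts in exa1-1 and 1, 0 and 0 in the wild type. In NaCl it had 9, 0 and 7 counts in exa1-1, so that 2 libraries were high and the remaining library had none. SESA2 had 0 to 6 counts in every library and overlapped between the genotypes in all 4 conditions. SESA3 had 2, 1 and 2 counts in exa1-1 at 23 °C and 1 count elsewhere, in wild type with NaCl. SESA4 had 0 to 3 counts and SESA5 0 to 2 in every library.

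SESA1 to SESA4 are single-exon neighbours within 6955 bases of chromosome 4 and are 82.6% to 90.6% identical, with a shared run of up to 49 bases. How reads that match more than a single copy were counted is not given in the sources used here, so the split among these 4 genes is uncertain. SESA5, on chromosome 5, is 68.5% to 72.0% identical to the other albumins.

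Summed over the 10 genes, the level in exa1-1 was 0.630 times that of the wild type in MS, 0.879 times in NaCl, 3.14 times at 23 °C and 6.47 times at 39 °C. In MS all 3 exa1-1 libraries lay below all wild-type libraries for 2 of the 10 genes in CPM, CRA1 and CRU3, and above for 0 (24.7% and 19.9% of all genes tested, in that order). In NaCl these counts were 2 and 0 (23.2% and 22.0% of all genes), with the 2 being SESA5 and OLEO1 at 4 and 3 wild-type counts. At 23 °C they were 0 below and 6 above (21.6% and 21.3% of all genes), the 6 being CRA1, CRU3, SESA1, SESA3, OLEO1 and OLEO2. At 39 °C they were 0 below and 5 above (20.3% and 22.3% of all genes), the same genes without SESA3. SESA1 was above there only in CPM, since libraries of both genotypes held 1 count. Since the genes were chosen for this excess, nothing is read from these shares.

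The exa1-1 level of CRA1 was 0.553 times the wild-type level in MS (0.408 to 0.762), 0.831 times in NaCl (0.540 to 1.247), 3.24 times at 23 °C (2.77 to 3.79) and 7.14 times at 39 °C (5.47 to 9.46). The ranges are exact 95% intervals on summed counts and cover counting error only. For CRU3 the ratios were 0.687 in MS (0.430 to 1.11), 1.29 in NaCl (0.499 to 3.47), 3.38 at 23 °C (2.83 to 4.08) and 8.76 at 39 °C (6.02 to 13.2). Both cruciferins thus had a ratio under 1 in MS and their highest ratio at 39 °C. The oleosin ratios were smaller, at 2.49 (1.51 to 4.21) at 23 °C and 4.35 (1.86 to 11.7) at 39 °C for OLEO1. For OLEO2 they were 1.84 (1.19 to 2.92) at 23 °C and 2.90 (1.66 to 5.28) at 39 °C. SESA1 stood at 3.28 times (1.53 to 7.83) at 23 °C, and SESA3 had 5 counts there against 0, where the exact interval of the ratio starts at 0.873 and so includes no change.

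For the 10 genes summed, the level was 2.65 CPM ± 0.431 in wild type and 1.67 ± 0.176 in exa1-1 in MS, and 1.46 ± 0.112 and 1.28 ± 0.349 in NaCl. At 23 °C it was 7.24 CPM ± 1.24 in wild type and 22.7 ± 0.323 in exa1-1, and at 39 °C 3.87 ± 0.428 and 25.1 ± 1.69. The median log2 ratio over genes with more than 3 counts in both groups was -0.09 in MS (4 genes), 0.05 in NaCl (4 genes), 1.505 at 23 °C (6 genes) and 2.48 at 39 °C (4 genes). In MS and NaCl the sign of this median changed when single libraries were left out. In bulk samples, fewer cells of a type and less RNA per cell cannot be told apart. No total RNA was analysed here, so mRNA abundance and ribosome loading cannot be told apart either.

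**Figure D3:**
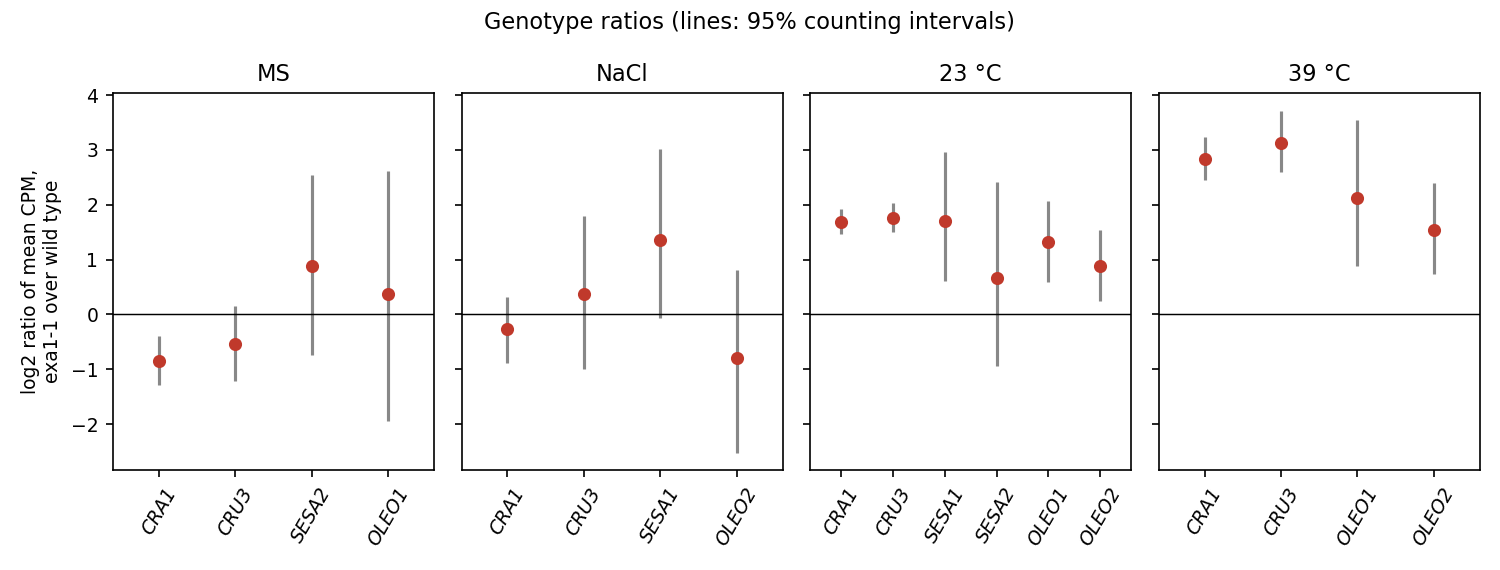
Log2 ratio of mean CPM, exa1-1 over wild type, in MS, NaCl, 23 °C and 39 °C for each seed gene with more than 3 counts in both groups (points), with 95% counting intervals (lines). CRA1 and CRU3 lie below 0 in MS and at 1.70 and 1.76 at 23 °C, and at 2.84 and 3.13 at 39 °C, with no test because this difference chose the genes.

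CRA1 fell in NaCl in the wild type, and CRU3 is described there with no test. Treatment effects within a genotype were not used to choose the genes, although they share libraries with the genotype ratios, and were tested with edgeR over all genes. In the salt experiment 2 of the 10 genes, CRA1 and CRU3, passed the filter on low counts. CRU3 passed it only through the MS libraries, where it was high, so the filter favoured a fall and no test is given. In the wild type CRA1 fell, where 35.4% of all genes were called lower and 36.5% higher. CRA1 changed by a log2 fold change of -0.95 (SE 0.31, edgeR adjusted p = 0.007044). CRU3 had 46 counts in MS and 9 in NaCl, a ratio of levels of 0.226 (0.0963 to 0.463). All 3 NaCl libraries lay below all 3 MS libraries for both genes. The call on CRA1 was lost without the second wild-type MS library (-0.72, edgeR adjusted p = 0.06483) or the first wild-type NaCl library (-0.71, edgeR adjusted p = 0.06042).

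In exa1-1 CRA1 did not pass the test in salt, where 37.2% of all genes were called lower and 35.9% higher. CRA1 stood at -0.39 (SE 0.35, edgeR adjusted p = 0.3182). CRU3, again with no test, had 33 counts in MS and 12 in NaCl, a ratio of 0.424 (0.196 to 0.826). CRU3 was called lower in some alternative fits, but the filter favoured this fall, so nothing is read from those calls. The difference between the genotypes was not tested, since it rests on the contrasts that chose the genes. The other 8 genes were too rarely counted in these libraries for a test. Among them OLEO2 had 4 counts in MS and 10 in NaCl in the wild type, a ratio of 2.85 (0.825 to 12.5), and SESA1 had 3 and 16 in exa1-1, a ratio of 6.00 (1.75 to 32.7).

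CRA1 and CRU3 fell at 39 °C in the wild type, and in the mutant they kept levels above all wild-type libraries. In the heat experiment 4 genes passed the filter on low counts, CRA1, CRU3, OLEO1 and OLEO2. The wild-type libraries alone sufficed for CRA1 and CRU3, while OLEO1 and OLEO2 passed mainly through the exa1-1 libraries. Choosing genes for a mutant excess favours low wild-type levels in these groups, so the wild-type changes are described with no test. In the wild type CRA1 had a log2 fold change of -0.83 (SE 0.22) and CRU3 of -1.42 (SE 0.29). Over all genes 42.3% were called lower and 38.2% higher. For both cruciferins the 39 °C libraries lay below the 23 °C libraries. OLEO1 stood at -0.80 and OLEO2 at 0.07 under TMM, and they stood at -1.68 and -0.83 with library totals alone.

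Both exa1-1 groups of this experiment are among those whose excess over the wild type chose the genes, so their changes are given as a description with no test. In exa1-1 CRA1 had a log2 fold change of 0.31 (SE 0.14) at 39 °C under TMM, but -0.64 with library totals alone. The direction of this small change therefore depended on the scale: its raw counts fell from 235 to 240 per library to 141 to 147. Under TMM CRU3 stood at -0.05, OLEO1 at -0.02 and OLEO2 at 0.72. With library totals alone CRU3 stood at -1.005 and OLEO2 at -0.23. In exa1-1 38.0% of all genes were called higher in heat and 41.4% lower. SESA1 went from 31 to 4 counts in exa1-1, a ratio of 0.263 (0.0676 to 0.745), and SESA2 from 10 to 0, where the exact interval of the ratio ends at 0.911.

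In the wild type, CRA1 and CRU3 were higher in the unstressed controls of the heat experiment than in those of the salt experiment. This comparison used all 24 libraries, with 33.3% of all genes called higher at 23 °C than in MS in the wild type and 32.8% lower. CRA1 rose by 1.12 (SE 0.21, edgeR adjusted p = 4.814e-06) and CRU3 by 2.02 (SE 0.29, edgeR adjusted p = 1.093e-08). OLEO1 and OLEO2 passed the filter on low counts only through the libraries of the heat experiment, where they were high, so their direction was set by the filter and no test is given. OLEO1 had 4 counts in MS and 23 at 23 °C, a ratio of levels of 7.14 (2.38 to 27.7), and OLEO2 had 4 and 32, a ratio of 9.59 (3.44 to 37.7).

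In exa1-1 the same difference is given as a description with no test, since the mutant at 23 °C is a group whose excess chose the genes. The level of CRA1 at 23 °C was 12.6 times (9.81 to 16.5) that in MS and the level of CRU3 was 20.1 times (14.0 to 29.2). OLEO1 had 5 counts in MS and 60 at 23 °C, and OLEO2 had 1 and 62, a ratio of 72.6 (12.8 to 2961). SESA1 had 3 counts in MS and 31 at 23 °C, a ratio of 12.1 (3.84 to 62.9). Since the controls belong to different experiments, their conditions and the experiments cannot be told apart. The genotype ratios are each within an experiment.

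**Figure D4:**
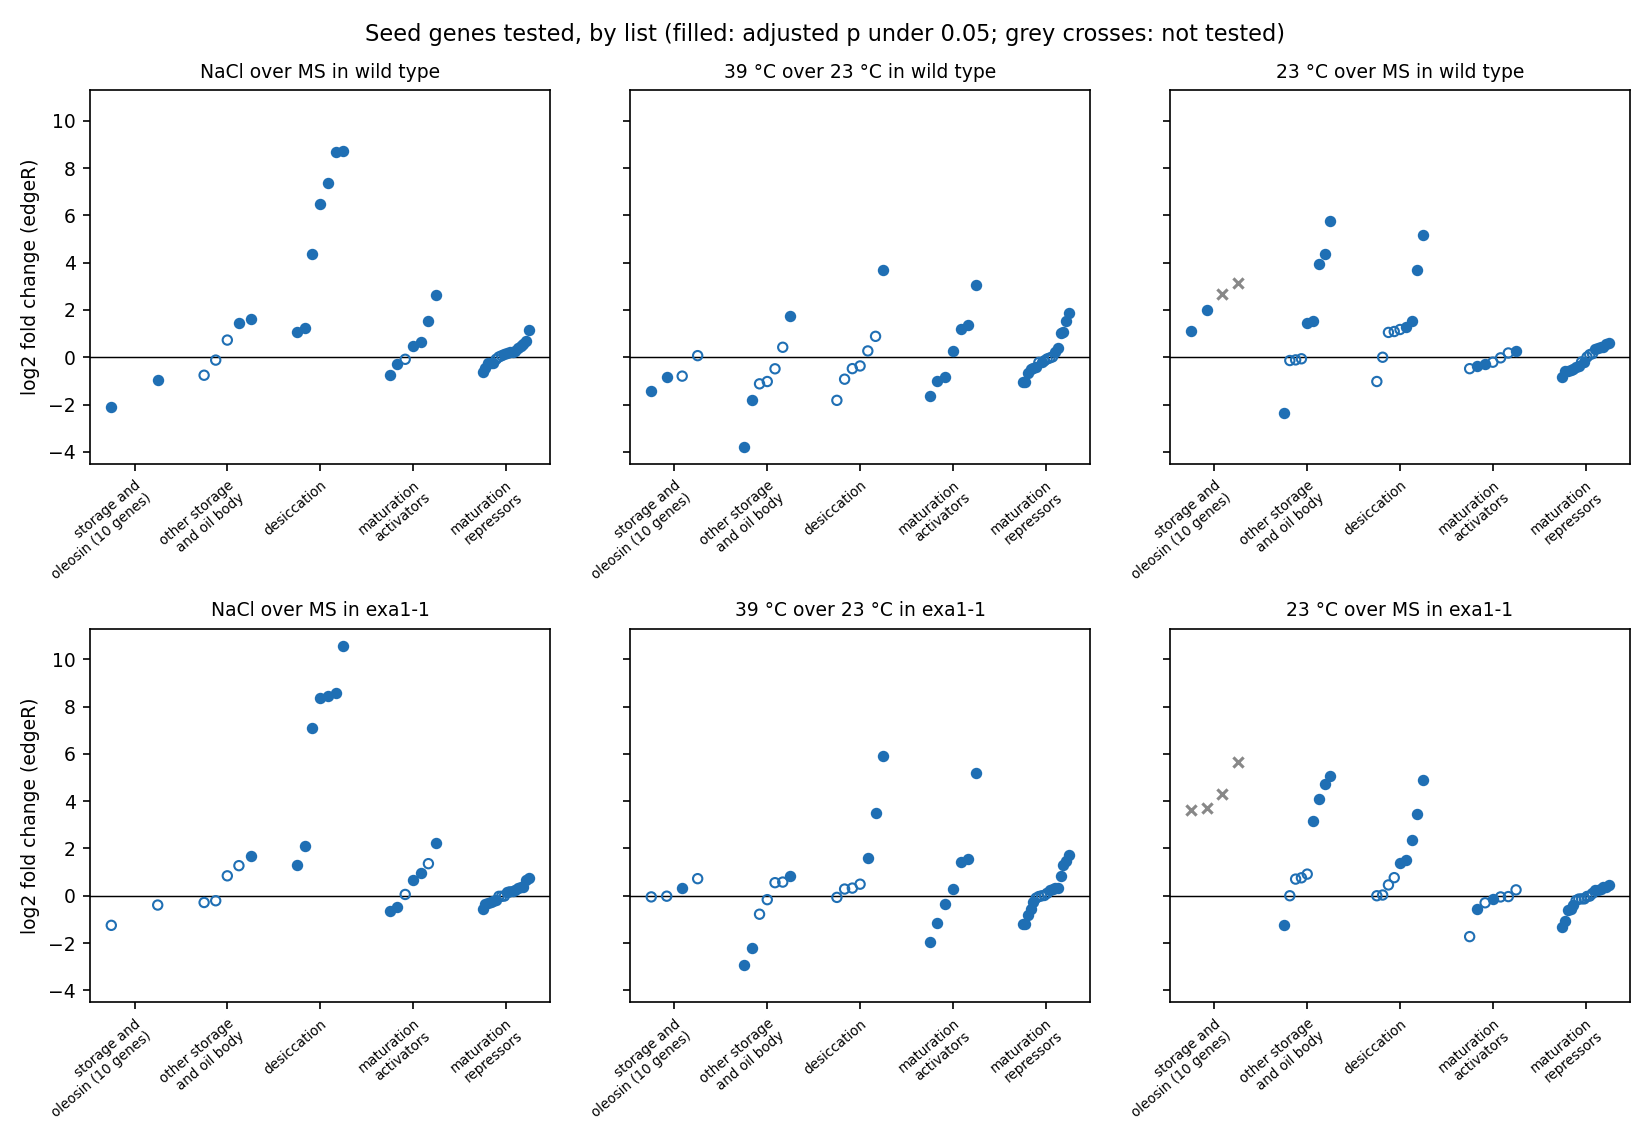
Log2 fold changes from edgeR for the tested genes of 5 lists of seed genes, in wild type (upper row) and exa1-1 (lower row), for NaCl over MS, 39 °C over 23 °C and 23 °C over MS (points: genes, filled where the adjusted p is under 0.05; grey crosses: seed genes described with no test). CRA1 and CRU3 lie below 0 in NaCl, and the 7 desiccation genes there lie between 1.08 and 10.6, most of them having passed the filter through the NaCl libraries. CRU3 in NaCl and the storage and oleosin genes at 39 °C in both genotypes are drawn as tested, although the text gives no test for them.

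Several genes of seed desiccation were counted mainly in NaCl, in libraries where the cruciferins were rare. Of 12 such genes, LEA and related proteins that protect the drying embryo, 7 passed the filter in the salt experiment, most of them through the NaCl libraries. The filter thus set the direction of most of their calls, and nothing is read from how many were called. LEA76 (AT3G15670) had 5, 5 and 3 counts in MS and 665, 670 and 623 in NaCl in the wild type, and 3, 6 and 3 against 1215, 1187 and 1192 in exa1-1. At the other end, RAB28 had 5, 5 and 7 counts in MS and 7, 13 and 12 in NaCl in the wild type, and 3, 5 and 6 against 7, 11 and 13 in exa1-1. CRA1 and CRU3 were at their lowest levels in the same NaCl libraries.

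In heat, 1 of 7 tested desiccation genes rose in the wild type and 3 rose in exa1-1, where 38.2% and 38.0% of all genes were called higher, with none lower under TMM and with 3 lower in the wild type under library totals alone. ECP63, a LEA protein gene, rose by 3.71 in the wild type and 5.92 in exa1-1, having passed the filter through the 39 °C libraries. At 39 °C the 3 exa1-1 libraries lay above the wild-type libraries for 6 of the 12 desiccation genes and below for 0 (22.3% and 20.3% of all genes). Their summed level there ran from 8.07 to 9.82 CPM in wild type and 13.1 to 16.5 in exa1-1. At 23 °C 0 lay above and 2 below (21.3% and 21.6% of all genes). At 23 °C against MS, 4 of 9 tested were higher in the wild type and 5 of 9 in exa1-1, against 33.3% and 33.1% of all genes. With library totals alone 4 were higher and 1 lower in the wild type, and 3 and 0 in exa1-1. EM1, among the 9, had no count in any of these control libraries.

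Of 17 other storage, oil body and seed tonoplast genes, 9 were tested between the controls. In the wild type 5 were higher at 23 °C and 1 was lower, and in exa1-1 4 and 1, counts that held with library totals alone. Over all genes 33.3% were called higher and 32.8% lower in the wild type, and 33.1% and 33.6% in exa1-1. Most of the higher ones passed the filter through the 23 °C libraries, so nothing is read from these counts. PAP85 (AT3G22640), a vicilin-like protein gene, had 1, 0 and 0 counts in MS and 33, 21 and 12 at 23 °C in the wild type, and 1, 1 and 2 against 45, 31 and 50 in exa1-1. TIP3;1, the seed tonoplast aquaporin, rose by 1.53 in the wild type and 4.72 in exa1-1. OLEO4, which is also transcribed outside the seed, went the other way, by -2.35 and -1.25, and it rose in NaCl by 1.63 and 1.68. At 39 °C PAP85 had 10 counts in the wild type and 13 in exa1-1, against 66 and 126 at 23 °C.

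At 39 °C the 3 exa1-1 libraries lay above the wild-type libraries for 4 of these 17 genes and below for 0, against 22.3% and 20.3% of all genes, so the count above was near the share of all genes. The 4 were TIP3;1 with 12 counts in wild type and 56 in exa1-1, a ratio of 4.89 (2.58 to 9.99), the cupin gene AT2G28490 with 6 and 28 counts (ratio 4.81, 1.98 to 14.4), OLEO5 with 5 and 11 (ratio 2.29, 0.736 to 8.44), and CLO2 with 1 and 5. Others were level or lower in exa1-1, such as OLEO4 at a ratio of 1.10 (0.787 to 1.55), TIP3;2 at 1.05 (0.543 to 2.01), CLO1 at 0.670 (0.218 to 1.88) and HSD5 at 0.587 (0.229 to 1.41), with intervals that include no change. PAP85 stood at a ratio of 1.37 (0.550 to 3.46).

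Of the 13 maturation activators, LEC1 and ABI4 had no count in any library. FUS3, LEC2 and ABI3, the B3 factors, had at most 9 counts in a group. ABI3 had 0, 0 and 9 counts in wild type at 23 °C and 3, 0 and 2 in exa1-1, with 0 in wild type and 7 in exa1-1 at 39 °C. Of 7 activators tested, 4 rose and 2 fell in NaCl in the wild type, and 3 and 2 in exa1-1 (36.5% and 35.4%, and 35.9% and 37.2%, of all genes). ABI5, the bZIP factor of abscisic acid signalling, rose most in NaCl, by 2.65 in the wild type and 2.25 in exa1-1. In heat 4 rose and 3 fell in both genotypes, against 38.2% and 42.3% of all genes in the wild type and 38.0% and 41.4% in exa1-1, and with library totals alone 3 rose and 4 fell. ABI5 fell in heat by 1.65 and 1.97. L1L, a LEC1-like subunit of the NF-Y factor, had the largest change of the list in heat, with 1, 5 and 1 counts at 23 °C and 14, 15 and 4 at 39 °C in the wild type, and 0, 3 and 0 against 21, 22 and 20 in exa1-1. It passed the filter through the 39 °C libraries, and there the exa1-1 level was 2.00 times (1.29 to 3.14) that of the wild type, with no overlap of libraries. BZIP53 fell in NaCl by 0.73 and 0.66. Between the controls, with the shares of all genes given above, 1 of 7 activators was higher and 2 were lower in the wild type, and 0 and 2 in exa1-1, or 0 and 3, and 0 and 5, with library totals alone.

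All 18 maturation repressors were tested, and they moved in both directions. Between the controls 6 were higher and 8 lower in the wild type, where 33.3% and 32.8% of all genes were, and 6 and 5 in exa1-1, where 33.1% and 33.6% were. These had median log2 fold changes of -0.09 and -0.08, and with library totals alone the counts were 5 and 10, and 1 and 11. VAL1, a B3 repressor that recruits silencing to RY elements, rose by 0.43 in the wild type and stood at -0.03 in exa1-1. VRN2, a Polycomb subunit, fell by 0.54 and 1.31, and MSI1 by 0.84 and 0.61. In heat 6 rose and 7 fell in the wild type (38.2% and 42.3% of all genes), and 8 and 5 in exa1-1 (38.0% and 41.4%), which library totals alone turned to 3 and 14 in both. In salt 10 rose and 5 fell in the wild type (36.5% and 35.4% of all genes), and 8 and 6 in exa1-1 (35.9% and 37.2%), or 5 and 7, and 5 and 9, with library totals alone.

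Of the 6 genes for storage protein sorting and cleavage, 5 were tested. In NaCl 4 rose in the wild type and 5 in exa1-1 (3 and 4 with library totals alone), against 36.5% and 35.9% of all genes, led by the vacuolar processing enzyme gene betaVPE, the main seed form, at 3.21 and 3.51. Among 11 genes of oil breakdown, 8 rose and 1 fell in NaCl in both genotypes (8 and 2 with library totals alone), where 36.5% of all genes rose and 35.4% fell in the wild type, and 35.9% and 37.2% in exa1-1. Between the controls 7 rose and 2 fell in the wild type (33.3% and 32.8% of all genes), and 6 and 1 in exa1-1 (33.1% and 33.6%), or 6 and 3, and 5 and 4, with library totals alone, with ICL, isocitrate lyase of the glyoxylate cycle, at 1.92 and 1.61. ICL rose in NaCl as well, by 1.37 and 1.23.

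Markers of other tissues moved beside these results, and their part in them was not tested. Of 9 seed coat markers, the defining early gene BAN had 1 count in wild type and 9 in exa1-1 in MS, 6 and 2 in NaCl, 0 and 0 at 23 °C, and 7 and 1 at 39 °C, and PER36 had 0 in all 6 groups without NaCl. The summed level of the 9 ran from 11.8 to 13.2 CPM in wild type and 16.9 to 19.4 in exa1-1 in MS, and from 20.1 to 25.4 and 22.5 to 31.5 at 23 °C. At 39 °C it ran from 11.1 to 12.7 CPM in wild type and 11.1 to 12.4 in exa1-1. In NaCl it ran from 28.5 to 30.6 and 38.8 to 41.2. Most of these sums was MUM2, with 343 to 2337 counts a group.

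The summed level of 5 shoot markers was lower in exa1-1 in every condition, at 26210 to 27350 CPM against 30390 to 31190 at 23 °C and 49060 to 50780 against 57720 to 58810 at 39 °C. In MS it was 7159 to 7742 CPM in exa1-1 and 10570 to 11100 in wild type, and in NaCl 9816 to 10010 and 18080 to 18460. All 5 were called higher at 23 °C than in MS in both genotypes (33.3% and 33.1% of all genes), 4 of them in exa1-1 with library totals alone. The summed level of 6 root markers was 86.5 to 92.7 CPM in exa1-1 and 77.8 to 88.1 in wild type at 23 °C, and 42.4 to 44.5 and 45.5 to 47.2 at 39 °C. In MS it was 84.1 to 88.7 CPM and 77.7 to 83.0, and in NaCl 40.2 to 42.2 and 45.5 to 49.99. The 6 root markers did not all move together. All 3 exa1-1 libraries lay above the wild type for 2 and below for 1 at 23 °C (21.3% and 21.6% of all genes). At 39 °C these counts were 2 and 2 (22.3% and 20.3%), in MS 3 and 0 (19.9% and 24.7%), and in NaCl 0 and 3 (22.0% and 23.2%). At 23 °C CASP1 stood at a ratio of 0.579 and SCR at 1.26. None of the 5 shoot and 6 root markers was at 0 in a whole group.

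Over the 8 group means, the profiles of OLEO1, CRU3, CRA1 and OLEO2 correlated with the mean profile of the other 9 seed genes at Pearson r of 0.99, 0.99, 0.98 and 0.90. SESA3, SESA1 and CRU2 stood at 0.56, 0.49 and 0.32, and SESA2, SESA5 and SESA4 at -0.05, -0.33 and -0.40. These values are descriptions over 8 points that share libraries and a scale. The genes were also chosen for being higher in some exa1-1 groups, which favours a shared profile, so nothing is read from the high values. Within groups, across the 24 libraries, the residuals of the 4 counted genes correlated at -0.64 to 0.26. At counts this low the residuals hold much counting error, so they cannot show whether libraries of a group were alike.

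Among 12210 other genes that were counted well enough and varied between groups, the profiles most like the mean of the 10 were those of NSP3 (r = 0.97), GRP23 (0.97), AT4G29030 (0.96), AT1G17970 (0.94) and TOC159 (0.93), followed by DI21, AT1G80570, APO2, AT2G46490 and BGLU19 (0.91 to 0.92). The ranges of NSP3 and GRP23 were narrower than those of the cruciferins. NSP3, a nitrile-specifier protein gene, ran from 2.15 CPM in exa1-1 with NaCl to 6.68 in exa1-1 at 23 °C. GRP23 ran from 24.5 CPM in wild type with NaCl to 73.2 in exa1-1 at 23 °C. BGLU19, a beta-glucosidase gene, ran from 0.0262 CPM in exa1-1 in MS to 3.86 in exa1-1 at 23 °C, and stood at 1.15 in wild type at 23 °C and at 0.465 and 1.10 in wild type and exa1-1 at 39 °C.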

How the data were processed

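Polysome-bound mRNA of 24 libraries, 3 for each of 8 groups, was used as deposited. The submitters' processing notes name the aligner HISAT2 2.0.4, the read counter HTSeq 0.6.1p1 and build TAIR10. Strand, overlap and multi-match settings are not given in the sources used here. The authors deposited a table of counts per gene and a table of FPKM, which was used only to compare levels between genes per length. Libraries were grouped by their titles. The genes, the lists and the rule for naming genes were chosen with earlier results of these data known.

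Counts were analysed with edgeR 4.0.16 in R 4.3.3: filterByExpr (minimum count 10, minimum total 15), TMM scaling, robust quasi-likelihood tests, and Benjamini-Hochberg adjustment over all genes tested (21453 for salt, 20923 for heat, 21917 for the controls), called under 0.05. The 12 libraries of each experiment were fitted together, and all 24 for the controls. All adjusted p-values come from edgeR. Treatments were tested in 6 contrasts, and the 4 genotype contrasts were described only. The same holds for seed genes in treatment and control contrasts where the choice of genes or the filter bore on the direction. The salt and heat contrasts share control libraries with the contrasts between controls, and all share libraries with the genotype ratios.

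Levels are CPM with the TMM factors of the 24-library fit. Ratios are of mean CPM, with exact 95% intervals from summed counts, which cover counting error only. At these depths 3 counts, the limit set by a count of 0, is at most 0.168 CPM of the library total. The scripts were tested on simulated data. Replicates were checked as pairs of the same number: 0 of 18 residual correlations were over 0.1, so libraries were not paired. No 2 replicates were identical.

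Genes were named by the rule that takes all 10 seed genes, up to 4 called genes a list with the largest or smallest changes, and the 10 closest profiles (log2 of mean CPM + 0.5, SD over groups at least 0.5). FUS3, LEC2, ABI3, BAN, PER36, VAL1, LEA76, TIP3;1, OLEO4, ICL, L1L and the genotype values of other storage, desiccation and root marker genes were named after their values were seen. Promoters came from RefSeq assembly TAIR10.1, and the promoter of 1 of the 10 genes is not reported here. The gene length implied by count and FPKM matched the RefSeq exon length within 1 base for 99.2% of 19452 genes and for the 10 seed genes. The alternatives were DESeq2 1.42.0, RLE size factors, scaling by library totals alone, no filter, a filter of 1 CPM in 6 libraries, a replicate block, only the 2 groups compared, and leaving out each library. Tables and figures were made with Python 3.11.15, pandas 2.3.3, numpy 2.4.6, scipy 1.17.1 and matplotlib 3.10.9.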

Additional observations from a re-analysis of the deposited data

Results flagged for a closer look

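CRA1 was lower in exa1-1 in MS and higher at 23 °C and 39 °C, and the CRU3 ratios fell on the same sides. Every difference below rests on the genotype contrasts that chose the genes and was not tested. CRA1 had a log2 ratio of exa1-1 over wild type of -0.854 in MS, 1.70 at 23 °C and 2.84 at 39 °C, with no overlap of libraries in each of these conditions. For CRU3 the ratios were -0.541 in MS, 1.76 at 23 °C and 3.13 at 39 °C, again with no overlap in CPM on the TMM scale, though raw counts in MS overlapped. The counting interval of CRU3 in MS includes no change. In heat, the log2 ratio of CRA1 at 39 °C over 23 °C was -0.833 in the wild type and 0.308 in exa1-1, but the latter is on the TMM scale and turned negative with library totals alone.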

How the results depend on the processing

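Of 245 alternative log2 fold changes of single seed genes, 220 kept direction and call, 10 lost and 4 gained a call, and 11 changed sign. Of 156 alternative counts of called genes, 138 were within 1.5 times the main count. The replicate block moved none of these counts (CRA1 in salt in the wild type was -0.96, edgeR adjusted p = 0.005229). The called genes that moved did so as follows. In salt, lower calls in the wild type (2, of which the report keeps only CRA1 as a test) were 1 with the stricter filter, where a single gene was left to test, and 1 to 2 when libraries were left out. In exa1-1 the lower calls in salt (0) were 1 with library totals alone and 0 to 1 when libraries were left out. The call with library totals alone was on CRU3, which the report gives with no test. Higher calls in salt in exa1-1 (0) were 1 without a filter, SESA1 at 2.44. In heat in exa1-1, where the report gives no test, higher calls (1) were 0 with library totals alone, without a filter and without any single library. Lower calls there (0) were 2 with library totals alone. Between the controls, higher calls (4, of which the report keeps only CRA1 and CRU3 in the wild type as tests) were 2 in the wild type and 2 in exa1-1 with the stricter filter, and 2 in the wild type with only the 2 groups compared.

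Signs changed for OLEO2 in heat in the wild type (0.07 to -0.83 with library totals alone, and -0.50 to 0.40 without single libraries, among them -0.15). In heat in exa1-1, library totals alone gave -0.64 for CRA1 and -0.23 for OLEO2. Without single libraries CRU3 there ran from -0.14 to 0.0815, and OLEO1 from -0.37 to 0.29, with 0.00580 under RLE size factors and 0.00381 under DESeq2. The median log2 genotype ratio ran from -0.39 to 0.20 in MS and from -0.23 to 0.51 in NaCl when libraries were left out. Single ratios that changed sign ran from -0.22 to 0.95 for OLEO1 in MS, -0.51 to 0.00750 for CRA1 in NaCl, -0.22 to 2.01 for CRU3 in NaCl and -0.15 to 1.64 for SESA2 at 23 °C. The cause was not tested. Counts of at most 13 per library limit every statement on the albumins and CRU2.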
